A study of Mus musculus with 6 samples.

Results

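The genes described here are 10 forkhead transcription factors known from embryonic mesenchyme: Foxc1, Foxc2, Foxd1, Foxf1, Foxf2, Foxl2, Foxp1, Foxp2, Foxo1 and Foxq1. They were taken by gene symbol from the platform annotation, which assigned them 15 of the 45281 probes, and they are 10 of the 19057 genes with a named probe. RNA was measured on 6 Illumina bead arrays of mouse embryonic fibroblasts, primary mesenchymal cells cultured from dissociated embryos. The cells were of strain C57Bl/6NCr and were Lasp1+/+ (wild type, 3 arrays) or Lasp1-/- (knockout, 3 arrays). LASP1 binds actin filaments through repeats beside its LIM and SH3 domains, and the series is titled for cell migration and tumour formation. The labels give no age, sex, passage or agent for either group, and they do not state whether the 3 arrays of a group came from separate embryos or cultures. All p-values therefore measure the spread between these arrays, which may be technical.

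Forkhead proteins bind DNA through a winged-helix domain that inserts a recognition helix into the major groove. FOXC and FOXF proteins pattern paraxial and lateral plate mesoderm and its derivatives, such as the skull, the eye, the vessels and the gut wall, and FOXD1 marks the stroma of the kidney. FOXP proteins are repressors that dimerise through a leucine zipper, and FOXO1 is kept out of the nucleus when growth factors activate the kinase AKT.

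Foxc1 rose in Lasp1 knockout fibroblasts and Foxo1 fell, each at its brightest probe, while the brightest probes of the other 8 genes did not pass the test. Foxc1, a factor of neural crest and somite mesenchyme, was 2.26-fold higher (log2 difference 1.17 ± 0.13 SE, n = 3 arrays each). Foxo1 was 1.52-fold lower (log2 difference -0.60 ± 0.08 SE). A second, dimmer probe of Foxp1 also rose. Differences are knockout minus wild type on the log2 scale of the deposited intensities, from limma fitted over all probes, and a probe was called at a Benjamini-Hochberg adjusted p under 0.05. By that rule 1 of the 10 genes was called higher and 1 lower, against 2.03% and 3.78% of all genes at their brightest probe (5.81% in either direction, and 9.2% of the genes above the median over all probes). Of the 15 probes, 2 were called higher and 1 lower, against 1.4% and 2.5% of all probes. The median log2 difference of the 10 genes was 0.17, beside -0.02 over all genes.

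**Figure D1:**
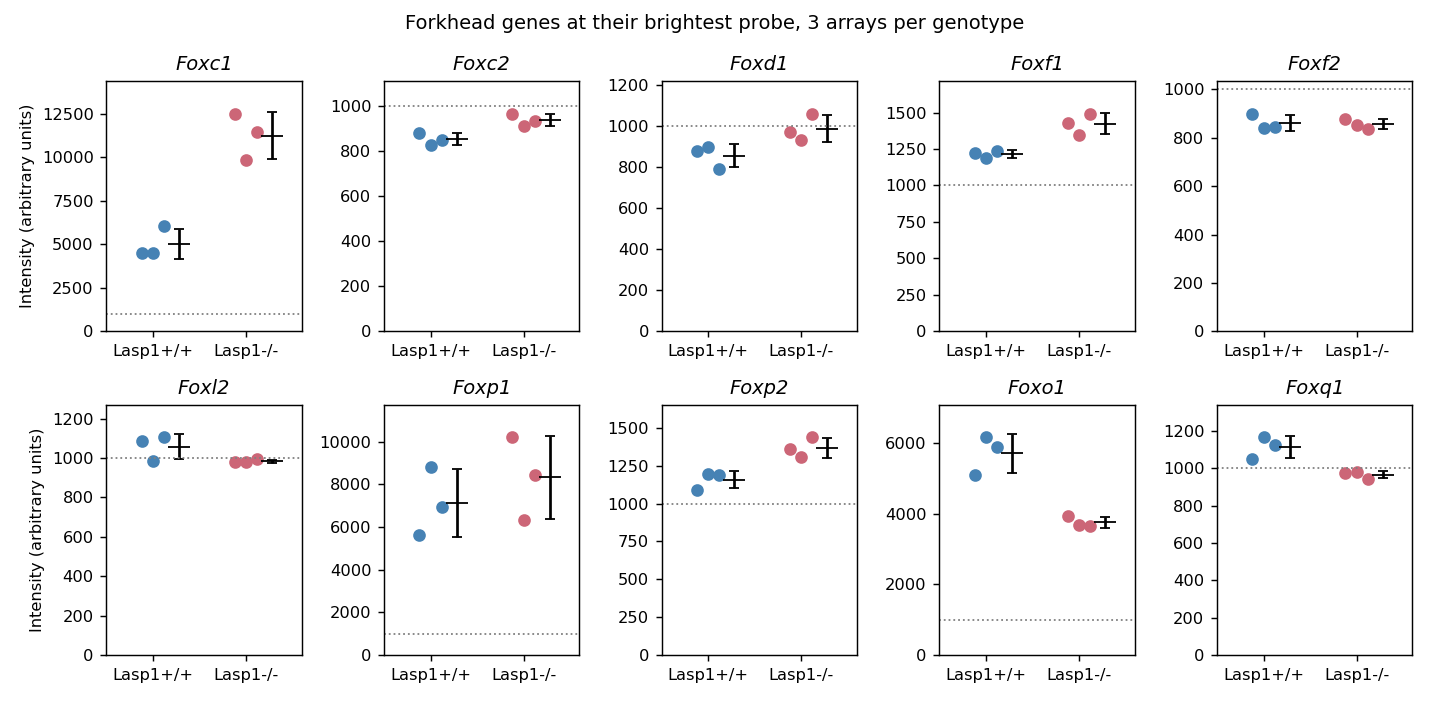
Intensity (arbitrary units, linear axes from 0) of each forkhead gene at its brightest probe in the 3 wild-type (Lasp1+/+) and 3 knockout (Lasp1-/-) arrays; bars beside the points are mean ± SD and the dotted line is the array median of 1000. The Foxc1 points of the knockout lie from 9807 to 12493, above all wild-type points, those of Foxo1 lie below them, and several other genes sit close to the dotted line.

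The arrays carry a background of light, so a level near the array median of 1000 could not be told from an absent transcript. Of the 10 genes, 7 had a group mean above the median over all probes, and Foxc2, Foxd1 and Foxf2 lay below it in both. If a dim gene is expressed, the same background draws its fold towards 1, and whether that holds for these genes was not tested. Wild type replicate 2 and knockout replicate 1 had the highest upper quartiles of intensity (2330 and 2283), against 2018 to 2112 in the other arrays. As a check of the labels, Lasp1 itself at its brightest probe read 135295, 148208 and 148809 in wild type and 51904, 51019 and 49770 in knockout. It was 2.83-fold lower, with a limma adjusted p of 1e-05, though whether the probe lies within the disrupted part was not analysed here. After quantile normalization 51.9% of all called probes were higher, against 35.9% in the deposited scaling.

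The fibroblast label was checked against lists of marker genes, chosen with earlier results of these data known. All 14 fibroblast markers lay above the median over all probes, and 5 of them fell in knockout, led by Col1a2, Lum and Twist1 (log2 differences of -0.84, -0.80 and -0.77). That is 35.7% called, and all marker counts here stand against 9.2% of the genes above that median and 5.81% of all genes. Their summed intensity ranged from 1439500 to 1675660 in wild type and from 1197740 to 1289270 in knockout. Of 10 epithelial markers, 2 fell (20%, Krt14 and Krt8) and 8 did not pass, and the sum was 26221 to 31007 in wild type and 13424 to 14133 in knockout. Krt14, a keratin of basal epithelium, made up most of that change (15557 against 2565). The defining epithelial genes Epcam and Cdh1 stayed near the array median (868 and 809, and 1037 and 1065). Of the other uncalled markers, Krt19 was lower (2953 against 2172) with separate groups. Krt18 (1387 against 1570) and Cldn4 (879 against 1094) were higher, also with separate groups. Of 8 skeletal muscle markers 2 rose (25%, the actins Acta1 and Actc1 by 1.52 and 0.61 on the log2 scale). The sums were 14993 to 16272 in wild type and 24667 to 25636 in knockout, and Acta1 made up most of that change (4546 against 12873). Myod1 (832 and 883), Myf5 (850 and 875) and Ckm (833 and 827) lay below the array median and Myog (1117 and 1120) near it. Des was higher with separate groups (4531 against 5280) and Tnnt1 lower with overlapping groups (2052 against 1915), both uncalled. Of 8 chondrocyte markers (37.5% called) Col2a1, the cartilage collagen, rose from 1207 to 18527, and Comp and Sox9 fell (-1.05 and -0.47 on the log2 scale), with sums of 54672 to 66078 and 58463 to 67203. Of 10 endothelial markers 1 rose (10%, Emcn, 2367 against 3634), with sums of 12209 to 12683 and 12751 to 13478. Of the uncalled endothelial markers, Tek (2147 against 1750) and Esam (1404 against 1140) were lower with separate groups. Pecam1 was higher (896 against 1033) with overlapping groups. Of 7 macrophage markers 1 rose (14.3%, Lyz2, sums of 11993 to 14763 and 16120 to 17350). Of 6 neural crest and glial markers 1 fell (16.7%, Ngfr, sums of 11281 to 14497 and 8850 to 9474), and of 7 gonadal markers limma called 0, with 0 at an unadjusted p under 0.05 (sums of 6906 to 7900.4 and 7590 to 8131). In these bulk samples, fewer cells of a type and less RNA per cell cannot be told apart, and the part of these marker shifts in the forkhead differences was not tested.

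Among the FOXC genes, Foxc1 is required for the skull vault, the front of the eye and the meninges in mice. Its single probe (ILMN_2886260) read 4477, 4510 and 6031 in the wild-type arrays, which average 5006 ± 888 (SD, n = 3). In knockout it read 12493, 9807 and 11416, averaging 11239 ± 1352 (SD, n = 3). The lowest knockout array lay well above the highest wild-type array, and the limma adjusted p was 0.00126 with a 95% interval of 0.88 to 1.47 for the log2 difference. The exact two-sided permutation p was 0.1, the smallest that 3 arrays against 3 allow. Under other processing, and with single arrays left out, the log2 difference ran from 1.06 to 1.32 and the call held each time, and it was 1.03 without the 2 arrays of highest upper quartile. The single probe means that no second probe of the gene bears on this rise.

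Foxc2, the close paralogue of Foxc1 that is needed for the aortic arch and lymphatic valves, read 826 to 880.2 in wild type and 910.5 to 963.9 in knockout. All 6 values were below the array median, the groups did not overlap, and the log2 difference of 0.14 ± 0.06 (SE) did not pass (limma adjusted p = 0.373).

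The promoters of Foxc1 and Foxo1, the genes whose brightest probes were called, are shown because the rise and the fall concern these transcripts. The sequences are RefSeq's, of mouse build GRCm38.p6, and cover 250 bases before to 50 bases after the gene's start. The Foxc1 window is chr13:31806396-31806695 and the Foxo1 window is chr3:52268087-52268386, both on the plus strand. Capitals mark each CCAAT box (CCAAT or its reverse complement ATTGG) and each GC box (GGGCGG or CCGCCC), elements common in promoters.
Foxc1: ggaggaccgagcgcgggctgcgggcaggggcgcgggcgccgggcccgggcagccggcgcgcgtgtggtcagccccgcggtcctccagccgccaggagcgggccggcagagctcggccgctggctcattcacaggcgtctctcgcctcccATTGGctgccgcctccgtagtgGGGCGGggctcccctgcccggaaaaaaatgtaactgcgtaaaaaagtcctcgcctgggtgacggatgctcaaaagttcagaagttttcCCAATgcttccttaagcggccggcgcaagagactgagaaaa
Foxo1: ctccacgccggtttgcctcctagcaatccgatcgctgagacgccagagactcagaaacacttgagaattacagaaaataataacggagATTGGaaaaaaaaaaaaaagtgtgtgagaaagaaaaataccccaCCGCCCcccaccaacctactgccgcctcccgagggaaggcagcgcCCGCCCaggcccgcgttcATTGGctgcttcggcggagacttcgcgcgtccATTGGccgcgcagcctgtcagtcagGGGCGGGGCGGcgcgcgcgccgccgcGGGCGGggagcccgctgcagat
The Foxc1 window held 2 CCAAT boxes and 1 GC box, and the Foxo1 window held 3 CCAAT boxes and 5 GC boxes, of which a pair share a base. Of all 32851 promoter windows of this length in the table, 37.4% held a CCAAT box and 35.7% a GC box. The letters TGTTTAC of the forkhead core motif (GTAAACA on the other strand), present in 3.6% of all windows, were in neither, and nor were those of the TATA box (TATAAA or TTTATA, 13.6% of windows). The GC content was 67.3% for Foxc1 and 61.3% for Foxo1, against a median of 52.7%. Promoter windows were matched for 6 of the 10 genes, the others being Foxd1, Foxf2, Foxl2 and Foxp1. Entries for Foxc2, Foxf1, Foxp2 and Foxq1 are missing there.

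The FOXF genes act in the mesenchyme of the gut and lung, where hedgehog proteins from the epithelium induce them. Foxf1 read 1220, 1185 and 1238 in wild type and 1427, 1347 and 1492 in knockout, just above the array median. The 3 knockout values were all above the wild-type values, by a log2 difference of 0.23 ± 0.07 (SE), but the probe did not pass (limma adjusted p = 0.119). Foxf2 stayed below the array median in all arrays, at 841 to 899.9 in wild type and 838 to 878 in knockout. Its groups overlapped, with a log2 difference of -0.01 ± 0.06 (SE, limma adjusted p = 0.979), so that any level of this transcript was not detectable here.

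Foxd1 read 875.3, 895.9 and 789.1 in wild type and 970.6, 929.1 and 1058 in knockout. The groups did not overlap, but only 1 array exceeded the median of 1000, and the log2 difference of 0.21 ± 0.08 (SE) did not pass (limma adjusted p = 0.236). Foxl2, a factor of ovarian granulosa cells and of the eyelid, read 984.2 to 1105 in wild type and 977.3 to 992.9 in knockout. Its groups overlapped and it did not pass (log2 difference -0.10 ± 0.07 SE, limma adjusted p = 0.589). Foxq1, whose loss causes the satin coat in mice, read 1048, 1166 and 1125 in wild type and 975.6, 978 and 943.4 in knockout. The knockout arrays were all below the wild-type arrays and below the array median, with a log2 difference of -0.20 ± 0.07 (SE) that did not pass (limma adjusted p = 0.167).

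**Figure D2:**
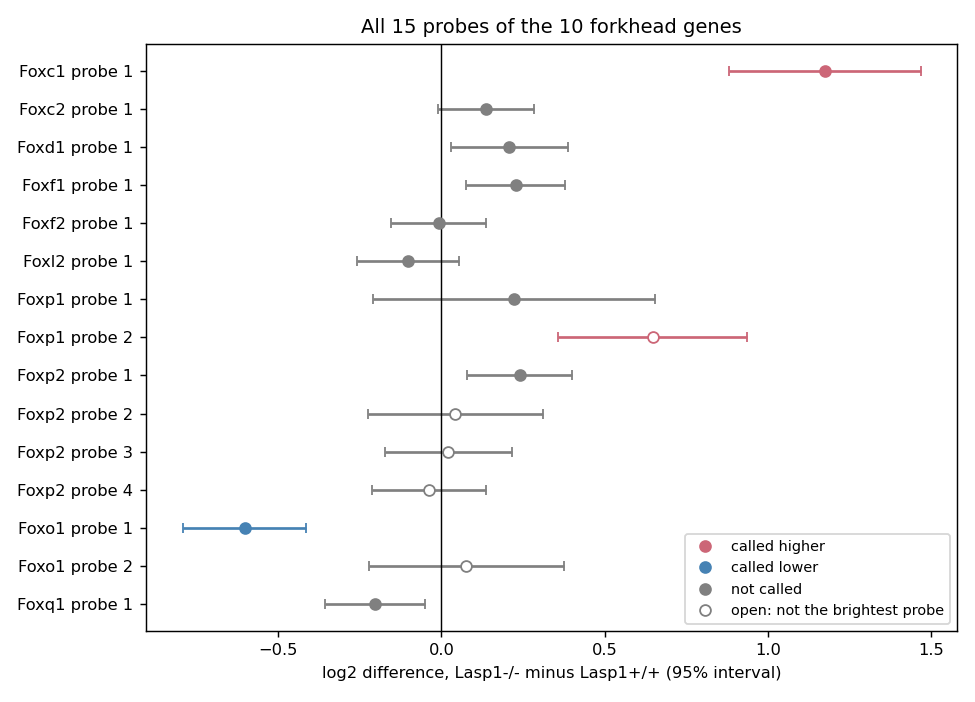
Log2 difference (knockout minus wild type) with its 95% interval for all 15 probes of the 10 genes, probes of a gene ordered from brightest; colour gives the call and open circles are probes other than the brightest. Foxc1 (1.17) and the second probe of Foxp1 (0.65) lie to the right, the first probe of Foxo1 (-0.60) to the left, and the others are grey.

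Foxo1, a nuclear effector of insulin and growth factor withdrawal, had a brighter and a dimmer probe. At the brighter probe (ILMN_2656498) wild type read 5103, 6163 and 5880, averaging 5715 ± 549 (SD, n = 3). Knockout read 3929, 3680 and 3658, averaging 3756 ± 150.2 (SD, n = 3). Every knockout array was below every wild-type array, and the limma adjusted p was 0.00451 with a 95% interval of -0.79 to -0.41 for the log2 difference. The dimmer probe (ILMN_2509340) read 986.9, 1338 and 991.1 in wild type and 1324, 1037 and 1118 in knockout, close to the array median. Its groups overlapped (log2 difference 0.08 ± 0.13 SE, limma adjusted p = 0.883). The mean over both probes, -0.26 on the log2 scale, did not pass (limma adjusted p = 0.211). After normexp background correction the difference at the brighter probe was -0.68 and did not pass (limma adjusted p = 0.0763).

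Foxp1, a repressor needed in the heart, the lung and B cells of mice, also had a pair of probes. The brighter one (ILMN_1252078), annotated to a RefSeq transcript, read 5620, 8822 and 6916 in wild type and 10198, 6323 and 8437 in knockout. The groups overlapped, the highest array of each group being the one with the group's highest upper quartile, and the log2 difference of 0.22 ± 0.19 (SE) did not pass (limma adjusted p = 0.704). The dimmer probe (ILMN_2552236), annotated to a cDNA clone, read 1206, 1565 and 1112 in wild type and 2212, 1802 and 2020 in knockout. Here every knockout array exceeded every wild-type array, a 1.57-fold rise (log2 difference 0.65 ± 0.13 SE, limma adjusted p = 0.025). That call was lost without wild type replicate 1 or 3 or knockout replicate 1 or 3 (limma adjusted p of 0.0506, 0.124, 0.0717 and 0.13). It was also lost after background correction, where the log2 difference was 1.13 (limma adjusted p = 0.0838).

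**Figure D3:**
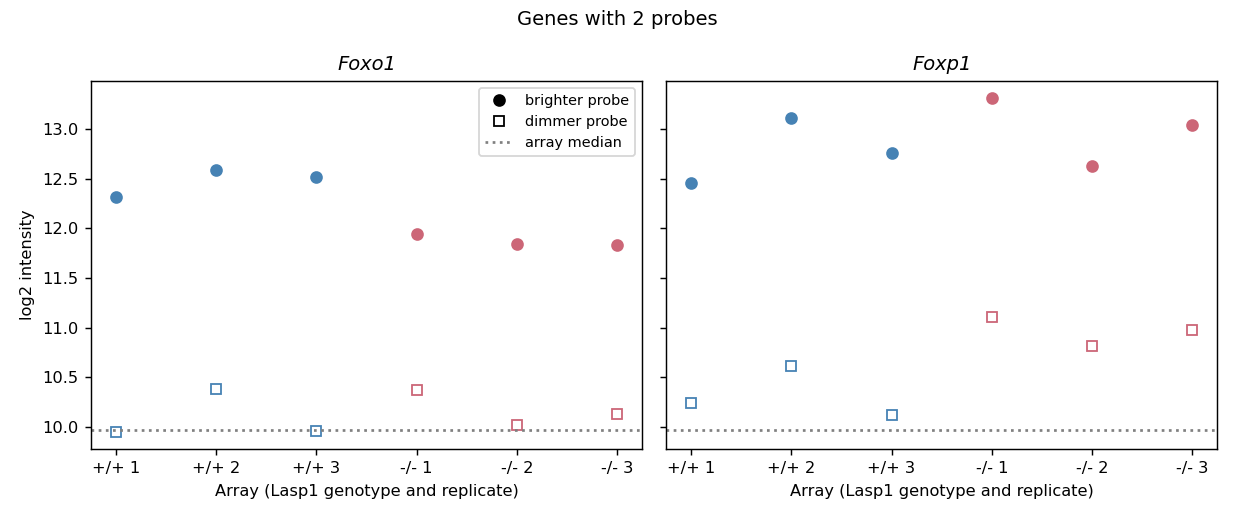
Log2 intensity of the brighter (filled circles) and dimmer (open squares) probe of Foxo1 and Foxp1 in each array, wild type in blue and knockout in red, with the array median as a dotted line. The brighter Foxo1 probe is lower in all 3 knockout arrays while the dimmer one stays near the dotted line, and for Foxp1 it is the dimmer probe whose groups separate.

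Foxp2, the paralogue of Foxp1 studied for vocal learning, was represented by 4 probes, all between 842 and 1437 on every array. The brightest (ILMN_3140000) read 1092, 1194 and 1190 in wild type and 1361, 1306 and 1437 in knockout. Its groups did not overlap, but it did not pass (log2 difference 0.24 ± 0.07 SE, limma adjusted p = 0.119). The other 3 probes had log2 differences of 0.04, 0.02 and -0.04 with overlapping groups. In all, the arrays of the groups did not overlap in 7 of the 10 genes, against 21.3% of all genes, with 5 of the 7 higher in knockout. At an unadjusted p under 0.05 there were 6 of 10 genes, against 19.9% of all genes, and 4 of these 6 (Foxd1, Foxf1, Foxp2 and Foxq1) were dim and within 0.25 of no change on the log2 scale. Because the members were chosen with earlier results of these data known, all shares of members are given as a description.

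Several members lie beside each other in the genome, and the RefSeq gene table of GRCm38.p6 was used for their order. On chromosome 13, Foxq1, Foxf2 and Foxc1 follow each other with 1 other measured gene between the first pair. Of these, only Foxc1 was called. The measured genes on either side of Foxc1 were Foxf2 (-0.01) and Gmds (log2 difference 0.00 ± 0.11 SE), an enzyme of GDP-fucose synthesis. The third gene beyond Foxc1, the protease inhibitor Serpinb1a, rose 1.73-fold (from 2030 ± 196 to 3509 ± 235, SD, n = 3 each; limma adjusted p = 0.00128). On chromosome 8, Foxf1, Mthfsd, Foxc2 and Foxl1 follow each other, and none of the 4 was called. Mthfsd had a log2 difference of 0.48 ± 0.15 (SE, limma adjusted p = 0.15) and Foxl1, a forkhead gene of gut mesenchyme, of 0.01. Over the 44 measured genes that are among the 3 nearest on either side of a member and are not members themselves, 3 rose and 0 fell (limma; 6.82%, against 5.81% of all genes). The other called neighbours were the glutathione transferase Mgst2 near Foxo1 (0.79 ± 0.08 SE) and the kinase subunit Pik3cb near Foxl2 (0.41 ± 0.09 SE).

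**Figure D4:**
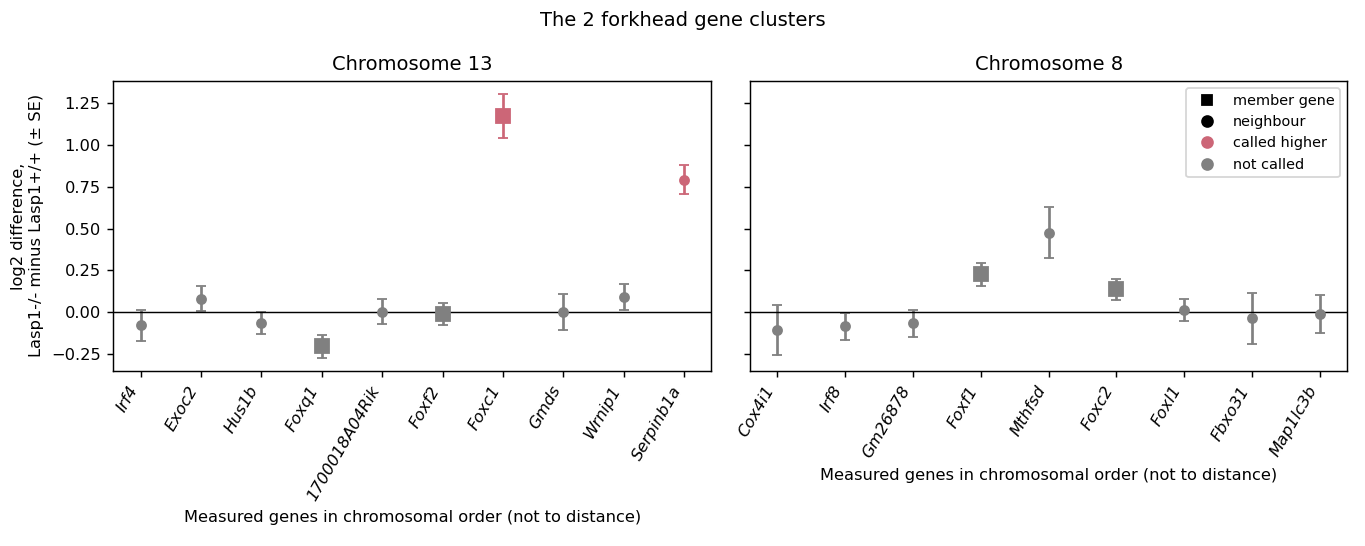
Log2 difference (knockout minus wild type) ± SE of measured genes in chromosomal order, not to distance, around the forkhead clusters of chromosomes 13 and 8; squares are members and red marks called genes. Foxc1 stands at 1.17 between Foxf2 (-0.01) and Gmds (0.00), and no gene of the chromosome 8 cluster was called.

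The 33 other forkhead genes with a probe gave 1 rise and 0 falls by limma, with 2 of them at an unadjusted p under 0.05, and a median log2 difference of 0.01. The rise was in Foxa1, a factor of endoderm, from 893 ± 61.3 to 1167 ± 35.7 (SD, n = 3 each; log2 difference 0.39 ± 0.07 SE, limma adjusted p = 0.0203), with the wild-type side below the array median. The closest relatives of the called members were not called. The brightest probe of Foxo3 read 1755 ± 140.1 and 1865 ± 71.2 (SD, n = 3 each), a log2 difference of 0.09 ± 0.08 (SE). Foxo4 and Foxo6 lay near the median. The brightest probe of Foxp4 had a log2 difference of -0.13 ± 0.08 (SE). Foxm1, which drives mitotic genes and was chosen for mention after its values were seen, read 4245 ± 327 and 3215 ± 398 (SD, n = 3 each) and missed the threshold (log2 difference -0.41 ± 0.10 SE, limma adjusted p = 0.0629).

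Genes that work with these factors were counted from lists written from general knowledge. The lists were chosen with earlier results of these data known, so their shares are a description. Of 17 genes of mesenchyme in which FOXC1 and FOXC2 act, 3 rose, 0 fell and 14 did not pass by limma (17.6% called, against 5.81% of all genes and 9.2% of those above the median over all probes). Their median log2 difference was 0.08, beside -0.02 for all genes. The chemokine Cxcl12, which FOXC1 maintains in the reticular cells of mouse bone marrow, read 62531, 78088 and 69277 in wild type and 120255, 129486 and 129323 in knockout. Its knockout arrays all exceeded the wild-type arrays, by 1.81-fold (log2 difference 0.86 ± 0.09 SE, limma adjusted p = 0.000889). The somite genes Pax1 and Meox1 rose by 0.75 ± 0.09 and 0.57 ± 0.08 on the log2 scale (SE), Pax1 from below the array median (887). Of 12 gut and lung mesenchyme genes around FOXF1 and FOXF2, 2 rose, 1 fell and 9 did not pass (25% called, median 0.03). The lung and limb growth factor Fgf10 rose (0.63 ± 0.09 SE), as did Hoxb5 (0.85 ± 0.09 SE), and the hindlimb and lung factor Tbx4 fell (-1.18 ± 0.09 SE).

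Of 14 hedgehog pathway genes, limma called 0, with 5 at an unadjusted p under 0.05, against 5.81% and 19.9% of all genes (median -0.09). The receptor Ptch1 and the effector Gli1, which hedgehog signalling induces, had log2 differences of 0.17 ± 0.14 and 0.02 ± 0.08 (SE), and Gli1 was below the array median in both groups. Of the genes with an unadjusted p under 0.05, Dhh was higher (0.36). The others, Hhip, Gli2, Cdon and Gas1, were lower (-0.18, -0.27, -0.28 and -0.21). Gas1 (886 against 766) was below the array median on every array. Dhh (1060 against 1356) and Hhip (1308 against 1158) were just above it. Of 15 genes that control FOXO1 through PI3-kinase and AKT, 1 rose (Pik3cb) and 14 did not pass (6.67% called, median 0.01). Of 25 genes reported as FOXO targets, 2 rose, 2 fell and 21 did not pass (16% called, median -0.11). The ubiquitin ligase Fbxo32 fell (-0.71 ± 0.08 SE, limma adjusted p = 0.00193), as did the endothelial and lymphoid factor Klf2 (-0.57 ± 0.11 SE). The repressor Bcl6 (0.53 ± 0.09 SE) and the pyruvate dehydrogenase kinase Pdk4 (0.48 ± 0.08 SE) rose.

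For the remaining members each list held 1 or 2 calls, or 9.09% to 20% of its genes, against the same 5.81% and 9.2%. Of 8 kidney stroma genes around FOXD1, 1 fell, the proteoglycan Dcn (-0.64 ± 0.11 SE), which is also among the fibroblast markers counted as falling. Of 11 ovarian and pituitary genes around FOXL2, 1 rose, the activin antagonist Fst, which read 4171, 4817 and 4305 in wild type and 12719, 9105 and 11264 in knockout. That 2.47-fold rise (1.30 ± 0.12 SE on the log2 scale, limma adjusted p = 0.000452) separated the groups fully. Only 5 of the 11 had a group mean above the median over all probes. Of the 10 that did not pass, Wnt4 (1836 against 1354) and Rspo1 (1252 against 1034) were lower with separate groups. Star (802 against 861) was higher with separate groups, below the array median. Of 11 corepressors and partners of FOXP proteins, 1 fell, Nfatc1 (-0.31 ± 0.07 SE). Of 10 genes of the epithelial to mesenchymal transition linked to FOXC2 and FOXQ1, 2 fell, Twist1 (-0.77 ± 0.09 SE) and Twist2 (-0.48 ± 0.08 SE), and 8 did not pass. Twist1 is counted among the fibroblast markers too.

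The genes whose log2 values ran most like those of Foxc1 and of Foxo1 over the 6 arrays were sought among the other 11984 genes above the median of probe means. Because the arrays fall into 2 genotypes, a Pearson r over them holds the difference between genotypes as well as the spread within each, and it is given as a description. For Foxc1 they were Spata48, Zbtb8b, Pdk4 and Rasgrp3 (r of 0.996 to 0.997), with log2 differences of 0.27, 0.24, 0.48 and 0.51, of which the last pair were called. For Foxo1 they were the spindle checkpoint kinase Bub1b, the tryptophan tRNA synthetase Wars, the sarcoglycan Sgcb and the class I antigen gene H2-Q5 (r of 0.997 to 0.999). All 4 fell, by log2 differences of -0.65, -0.45, -0.31 and -0.85. For both members, the high r and the shared direction follow from the search itself.

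**Figure D5:**
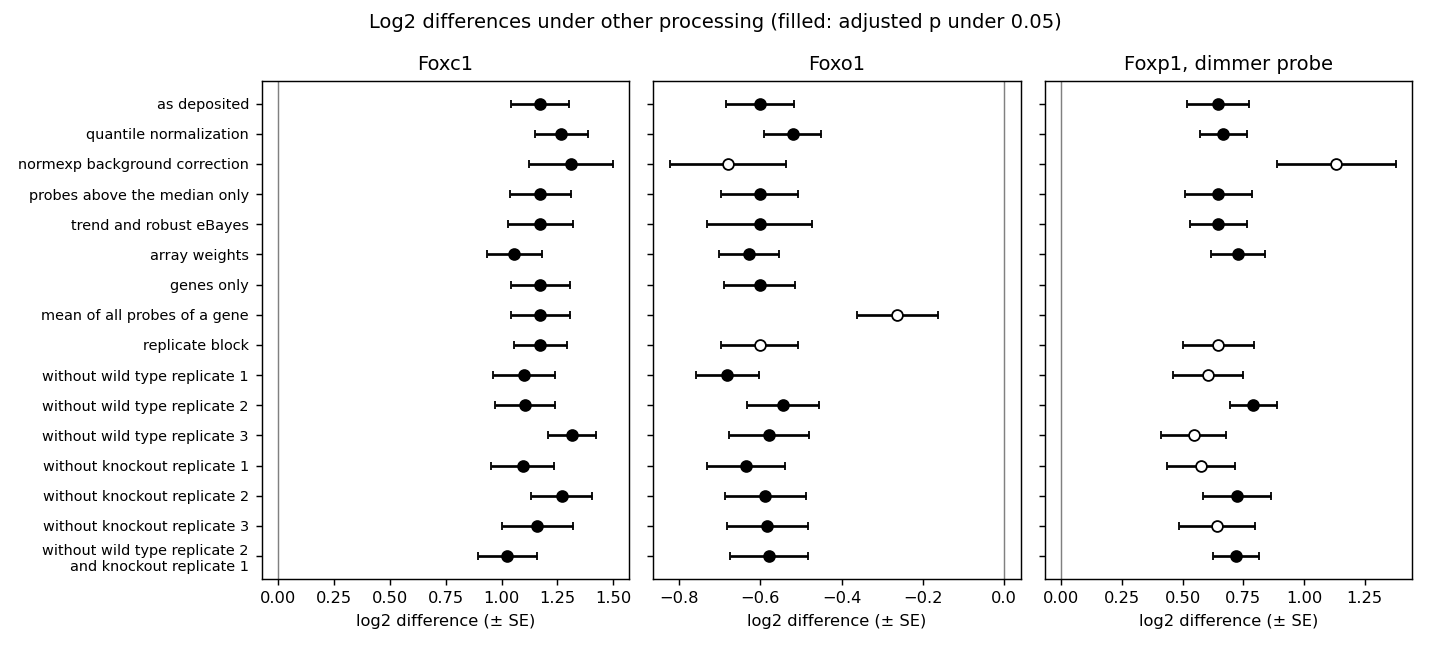
Log2 difference ± SE of Foxc1, of Foxo1 at its brighter probe (for the mean of all probes, both probes) and of the dimmer Foxp1 probe under each processing alternative; filled circles have an adjusted p under 0.05. Foxc1 is filled in every row, Foxo1 is open after background correction, for the mean of its probes and with the replicate block, and the dimmer Foxp1 probe is open in 6 rows.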

How the data were processed

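Biotin-labelled cRNA from total RNA was hybridised to Illumina arrays, as the labels' protocols state. The deposited table holds linear probe intensities, with a median of 1000 on each array and a range from 593 to 557143. They had been scaled per array and not background subtracted to 0. For the scanner and software, the sources used here give no name. Arrays give no counts, and their number limits the precision.

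Of 45281 probes, 34885 had 1 gene symbol, 18 several and 10378 none. The RefSeq table matched the Entrez ID of 34807, and 0 symbols changed. Intensities were taken to log2 with no pseudocount and tested by limma 3.58.1 under R 4.3.3 (4 residual and 5.19 prior degrees of freedom), genotype being the only term. The two-sided p-values were adjusted over all probes (Benjamini-Hochberg). A gene was represented by the probe of highest mean. The fit was tested on simulated data.

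The members, lists and rules were chosen with earlier results of these data known. The text names all members, Lasp1, up to 3 called rises and falls per list, called neighbours and the 4 genes most like the top called member in each direction. Genes named to complete a comparison were chosen after their values were seen. Among the markers these were Epcam, Cdh1, Krt19, Krt18, Cldn4, Tek, Esam, Pecam1, Myod1, Myf5, Ckm, Myog, Des and Tnnt1. The rest were Gmds, Mthfsd, Foxl1, Ptch1, Gli1, Dhh, Hhip, Gli2, Cdon, Gas1, Wnt4, Rspo1, Star and uncalled forkhead genes. Alternatives were quantile normalization, normexp background correction (offset 50), a filter on dim probes, trend and robust eBayes (statmod 1.5.0), array weights, a fit over genes, the mean of a gene's probes, the replicate block and leaving out each array. Leaving out both arrays of highest upper quartile was added after the data were seen.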

Additional observations from a re-analysis of the deposited data

How the results depend on the processing

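Foxc1 was called higher under all 15 alternatives. Of the 173 values of single genes and second probes, 161 kept their direction and side of the threshold, 9 lost the call and 3 changed sign. The number of genes called lower was 0, in place of 1 (Foxo1), after normexp background correction, when a gene's probes were averaged and with the replicate block. The number of probes called higher was 1, in place of 2, after background correction and with the replicate block, where 0 probes were called lower. Leaving out 1 array gave 1 to 2 probes called higher, and Foxo1 at its brighter probe kept its call each time (-0.68 to -0.55). Values near 0 changed sign when 1 array was left out, Foxf2 reaching 0.022 (wild type replicate 1 left out) and 0.0071 (knockout replicate 3 left out), and -0.045 with both arrays of highest upper quartile left out. The dimmer Foxo1 probe ran from -0.023 (knockout replicate 1 left out) to 0.22. The cause of these changes was not tested.

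The replicate numbers are shared by both groups, but same-numbered arrays did not deviate together (r of -0.41, -0.34 and 0.22 over genes above the median), so the numbers were not taken as pairs. The highest r were between differently numbered arrays, 0.47 for wild type replicate 2 with knockout replicate 1 and 0.39 for wild type replicate 1 with knockout replicate 2. With the replicate block limma gave an adjusted p of 0.0168 for Foxc1, 0.0581 for Foxo1 and 0.141 for the dimmer Foxp1 probe. Probes called over the whole table numbered 1764, against 3301 after quantile normalization, 530 after background correction, 3434 with array weights, 561 with the replicate block, 3315 without the 2 arrays of highest upper quartile, and 636 to 2836 with 1 array left out. After background correction the log2 differences of these dim genes were larger in size: 0.71 for Foxd1, 0.50 for Foxp2, 0.47 for Foxc2, 0.45 for Foxf1 and -0.53 for Foxq1. None of them was called, and whether background limits these genes was not tested. The SE of each grew as well, for Foxd1 from 0.08 to 0.24.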

Other observations

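Foxp3, the defining factor of regulatory T cells, was not a member and was singled out after its values were seen. Its brightest probe (ILMN_1251126) read 13299, 16101 and 13341 in wild type and 15387, 13478 and 12859 in knockout, while its other 3 probes read between 836 and 1198 on every array. The groups overlapped at the bright probe (log2 difference -0.03 ± 0.10 SE, limma adjusted p = 0.941). The cause of the gap between its probes was not tested. Foxp4 probes differed in direction, with log2 differences of -0.13 ± 0.08, -0.24 ± 0.08 and 0.47 ± 0.17 (SE) at its 3 probes, none of them called.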
